A study of Mus musculus with 6 samples.

Results

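The cytosolic ribosome is built from a small and a large subunit, each a scaffold of ribosomal RNA that carries many different proteins. The genes of these proteins were followed here in the cochlea, the hearing organ of the inner ear, of young and old C57BL/6 mice, a strain that loses hearing early in life. A gene was taken as a member when it is protein-coding and its symbol is Rpl or Rps followed by a number, or Rpsa, Rplp0, Rplp1 or Rplp2, with the S6 kinases and predicted Gm genes left out. Of 92 such genes in the GENCODE M21 annotation, 91 were in the table, with 214 of its 56671 transcripts and as 91 of 25419 genes. The young group was 1 month old and the old group 12 months old, with 3 samples in each, all of the same strain and without a treatment. Cochlear tissue of 3 mice was mixed in every sample, and the labels name the dissected part as the basilar membrane, which carries the sensory epithelium. Values are FPKM, fragments scaled to transcript length and to library size, which were summed over the transcripts of a gene. The 6 samples are named young 1 to 3 and old 1 to 3 after their labels.

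Ribosomal proteins are made in matched amounts in every growing cell, and surplus copies are degraded. Their mRNAs are short and abundant, and most begin with a C in a run of pyrimidines, the 5′ terminal oligopyrimidine (TOP) tract, through which mTOR and the binding protein LARP1 govern their translation. In the inner ear, as in other postmitotic tissue, they serve the upkeep of long-lived cells such as hair cells and neurons. The abundance of an mRNA in bulk tissue does not tell fewer cells of a type from less RNA per cell.

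The letters at the start sites of 8 members that are described below are printed first. Most mRNAs of ribosomal proteins are known to begin in a pyrimidine tract. Each window holds 20 bases before and 10 bases from the RefSeq start site (GRCm38.p6, 5′ to 3′ on the gene's strand), and capitals mark an unbroken run of at least 7 C or T bases that reaches within 10 bases of the start. The first 4 are among the members with the largest rise, on chr2:32961692-32961721 (plus strand), chr7:118116138-118116167 (minus), chr7:3704021-3704050 (plus) and chr7:141447631-141447660 (plus).
Rpl12: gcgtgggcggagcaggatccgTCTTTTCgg
Rps15a: gcccaCTCTCTTTCTgccatcttccctcgc
Rps9: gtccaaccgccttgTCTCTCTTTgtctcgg
Rplp2: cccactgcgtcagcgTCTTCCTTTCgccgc
The next 4 are Rpl26, with a large rise, Rps6, Rpsa and Rplp0, on chr11:68901546-68901575 (plus), chr4:86857358-86857387 (minus), chr9:120127746-120127775 (plus) and chr5:115559447-115559476 (plus).
Rpl26: gagatctcgcggcaacttacagaaccggaa
Rps6: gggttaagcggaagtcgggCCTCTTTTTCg
Rpsa: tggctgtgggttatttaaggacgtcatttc
Rplp0: acgtcgtcttcgggtttcgaggaccgcctg
Such a run was found at 35 of 75 start sites of 64 tested members with an entry, 46.67%, against 19.68% of all 32851 start sites in the table of promoters. The run need not hold the start base or a C there, so that it is not by itself a TOP tract. Of the runs printed, those of Rplp2 and Rps6 have a C at the start base and that of Rps9 a T. The run of Rpl12 begins after the start base, and that of Rps15a ends before it. The motif CCGGAAG, searched on both strands of the 300 bases around the start, was found at 27 of the 75 member starts, 36.0%, against 8.86% of all starts. TATAAA, searched between 40 and 15 bases before the start, was found at 1 of the 75, 1.33%, against 1.99% of all starts. Rpl26, Rpsa and Rplp0 had no such run in the searched window, which says only that these letters are not at the RefSeq start. The most abundant transcript began at this RefSeq start for Rplp0 (115559467) and elsewhere for the other members printed. For Rps15a, whose window holds a run, it began at 118115677, against a RefSeq start of 118116147.

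The libraries were of similar depth. Low FPKM values fall on steps of whole fragments, which put the depth at 12520000 to 15540000 fragments per sample, with 92.8 to 94.5% of the transcripts used lying within 0.1 fragment of a whole number. Ribosomal protein genes made up 11.4, 10.3 and 11.2% of all FPKM in young 1, 2 and 3, and 13.3, 13.3 and 13.6% in old 1, 2 and 3. Hair cell markers such as Otof, Myo7a, Slc26a5 and Ocm were present in both groups, and so were markers of bone. The 14 hair cell markers summed to 384 to 969 FPKM per sample and 10 osteoblast markers to 4300 to 5915 FPKM. Nothing names the animals behind each mixture, so that p-values measure only the spread between these samples.

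To determine how the ribosomal protein genes differ between the ages, each gene of the table with a mean of at least 0.1 FPKM was compared with limma on log2(FPKM + 0.1). In the old cochlea, 48 of 87 tested members were higher (adjusted p under 0.05) and 0 were lower, against 5.65% and 3.81% of the 19465 genes tested. At an unadjusted p under 0.05, 74 members were higher and 0 were lower, against 14.6% and 13.1% of all genes. The 3 old samples lay above the 3 young samples in 74 members and below them in 0, where 17.6% and 16.1% of all genes did so. The log2 change, old minus young, was above 0 in 83 of the 87 members, against 51.0% of all genes. Its median was 0.32, 1.25-fold, against 0.0088 over all genes tested. Among 685 other genes with a mean of at least 100 FPKM, the median log2 change was 0.06, with 125 higher and 38 lower.

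The size of the difference held better than the number of calls. Without young replicate 1, 2 or 3 in turn, 20, 2 and 27 members were called higher, where 2.9, 1.24 and 4.87% of all genes were. Without old replicate 1, 2 or 3, 4, 0 and 1 members were called higher, where 1.5, 0.237 and 1.35% of all genes were. For the fit without old replicate 2, which had 0 calls in limma, 67 members were higher at an unadjusted p under 0.05. The median log2 change stayed between 0.28 and 0.36 over these 6 fits. When limma was run without a trend of the variance with the level, 0 members were called, with 65 higher at an unadjusted p under 0.05, and 1.46% of all genes were called higher. With quantile normalization, which gives every sample the same distribution of values, 8 members were called, with 4.75% of all genes called higher. The members' median log2 change was then 0.15, and 77 of the 87 were above 0.

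Of the 91 members, 77 are the proteins of the ribosome proper and 14 are paralogs, copies or a binding protein. On the FPKM as deposited, all 77 had a log2 change above 0, from 0.11 to 0.58, and 48 of them rose, while 72 of the 77 were above 0 with quantile normalization. Those under 0 with quantile normalization were Rpl10, Rpl24, Rpl37, Rps27a and Rps28, at -0.03 or nearer to 0, and none of the 5 passed the test on either scale. Rpl28 was at -0.01 without young replicate 3. The small subunit had 20 of 31 genes higher and a median log2 change of 0.34, the large subunit without the stalk had 25 of 43 and 0.32, and the stalk had 3 of 3 and 0.43. By comparison, 5.65% of all genes tested were higher, and 125 of the 685 other genes with a mean of at least 100 FPKM. The summed FPKM of the 77 genes was 62551 ± 3561 (SD, n = 3) in young and 78927 ± 1503 (SD, n = 3) in old mice. Across the 77 genes, the order of levels was nearly the same in both groups (Spearman's rho of the group means 0.99, over genes that share libraries).

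**Figure D1:**
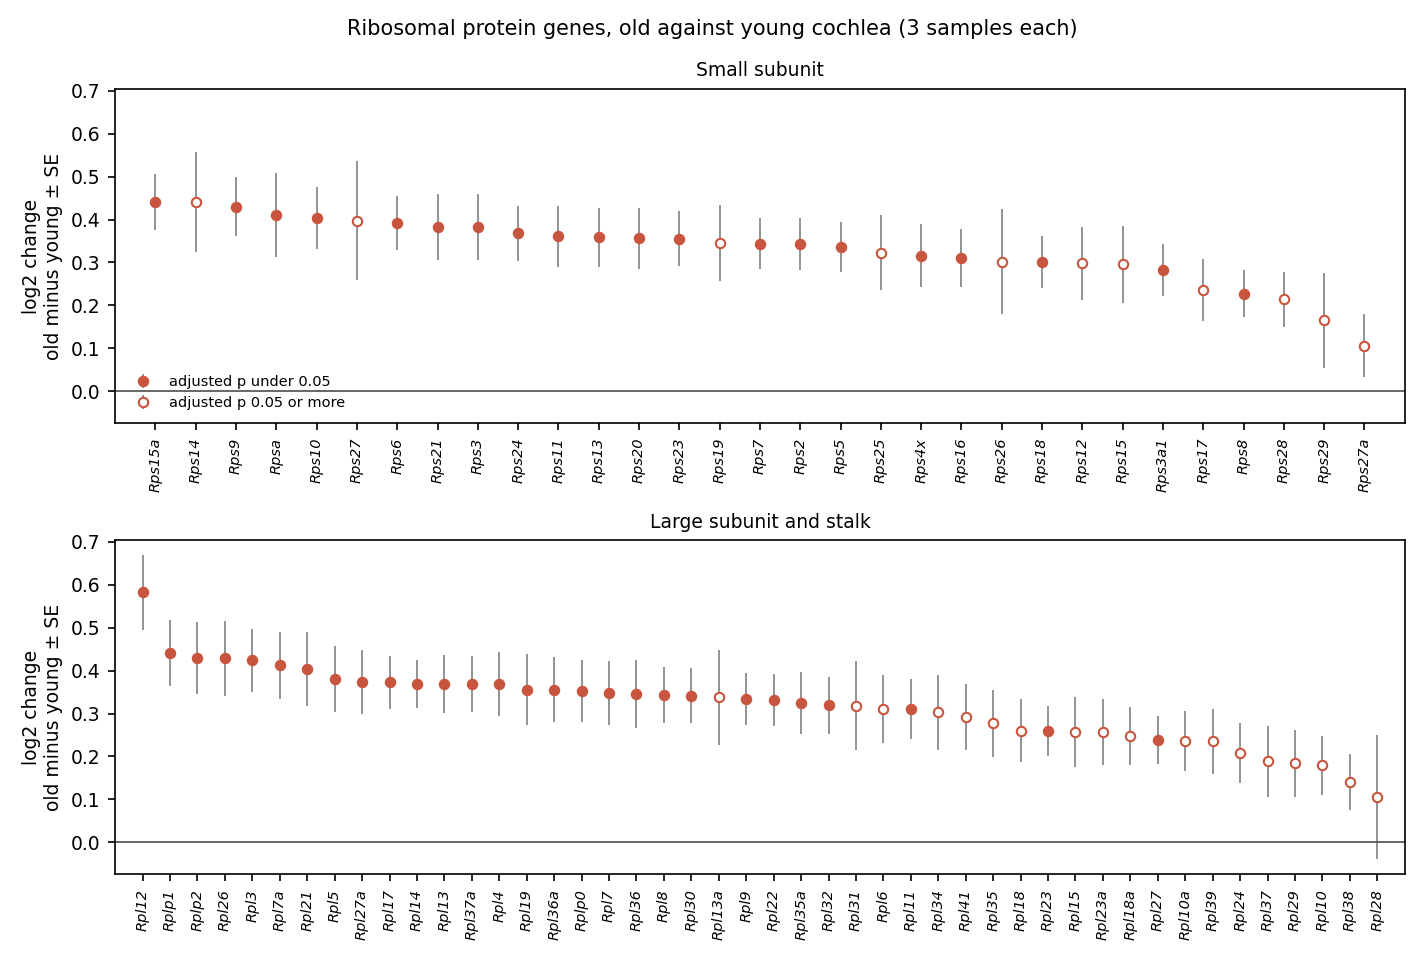
The log2 change of FPKM, old minus young, with its standard error for each of the 31 small subunit genes (upper panel) and the 46 large subunit and stalk genes (lower panel), ordered by size. Filled points passed an adjusted p of 0.05 in limma and open points did not, and all 77 points lie above 0 on the FPKM as deposited (72 of 77 with quantile normalization).

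The young samples differed among themselves in a shared way. Young 2 held the lowest of the young values in 66 of the 77 genes and young 1 the highest in 57. The median log2 ratio to the young mean was 0.06, -0.08 and 0.01 in young 1, 2 and 3, and 0.30, 0.32 and 0.35 in old 1, 2 and 3. Old 1 held the lowest of the old values in 38 genes. The median coefficient of variation was 5.79% in young and 4.41% in old samples.

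**Figure D2:**
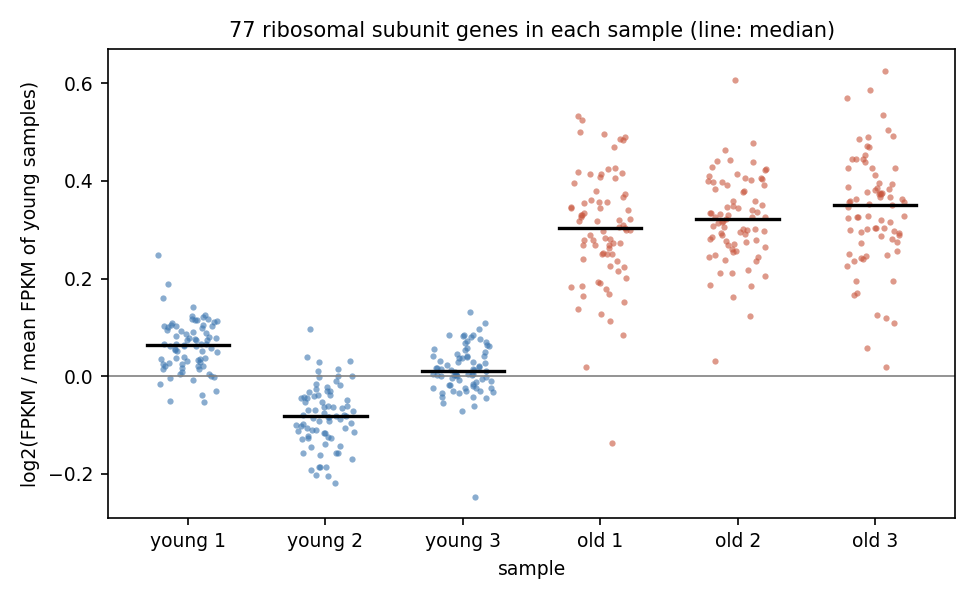
Each point is 1 of the 77 ribosomal subunit genes, plotted as log2 of its FPKM over its mean in the young samples, for the 3 young (blue) and 3 old (red) samples, with the median as a line. The medians of the old samples lie at 0.30 to 0.35 and those of the young samples at -0.08 to 0.06.

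The P stalk of the large subunit recruits the translational GTPases, and the mRNAs of its 3 proteins were all higher in old samples. Rplp1 (mouse chromosome 9, 61913284 to 61914542, minus strand, 3 exons) was at 2759.9, 2499 and 2672 FPKM in young and 3726, 3485 and 3552 FPKM in old samples. Its log2 change was 0.44 ± 0.08 (SE, limma adjusted p = 0.0223). Rplp2, its partner in the stalk dimers, was at 375, 365 and 425 FPKM in young and 559, 523 and 487 FPKM in old samples (log2 change 0.43 ± 0.08, SE, limma adjusted p = 0.027). For Rplp0, the protein that anchors both dimers, the values were 483, 437 and 458 FPKM in young and 546, 615 and 598 FPKM in old samples (0.35 ± 0.07, SE, limma adjusted p = 0.0305). In none of the 3 genes did the groups overlap. Rpl12, which sits at the base of the stalk beside Rplp0, had the largest change of all members. Its values were 128, 104 and 116 FPKM in young and 163, 176 and 178 FPKM in old samples, a 1.49-fold difference (log2 change 0.58 ± 0.09, SE, limma adjusted p = 0.0162). All of them come from 1 transcript of 7 exons on chromosome 2, from 32961559 to 32964496.

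Among the small subunit genes that passed the test, Rps15a and Rps9 had the largest changes, and Rps14, with a change of like size, did not pass (log2 change 0.44 ± 0.12, SE, limma adjusted p = 0.0562). Rps15a, a protein of the small subunit's body, was at 347, 329 and 339 FPKM in young and 489.5, 454 and 436 FPKM in old samples (log2 change 0.44 ± 0.07, SE, limma adjusted p = 0.0157). Rps9, which lies near the entry of the mRNA channel, was at 572, 540.0 and 599 FPKM in young and 798, 732 and 776 FPKM in old samples (0.43 ± 0.07, SE, limma adjusted p = 0.019). Rps6, the substrate of the S6 kinases, was at 706, 674 and 686 FPKM in young and 860.2, 915 and 938 FPKM in old samples. Its log2 change was 0.39 ± 0.06 (SE, limma adjusted p = 0.0195), and the lowest old sample lay well above the highest young one. Rpsa, also known as the laminin receptor, was at 239.6, 192 and 212 FPKM in young and 260.0, 291 and 301 FPKM in old samples (0.41 ± 0.10, SE, limma adjusted p = 0.0433).

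Rpl26, a protein beside the exit of the peptide tunnel, completed the 6 largest rises among called members, with 1349.8, 1119 and 1273 FPKM in young and 1601, 1693 and 1729 FPKM in old samples (log2 change 0.43 ± 0.09, SE, limma adjusted p = 0.0296). Rpl5 and Rpl11, which form a particle with 5S rRNA and can bind Mdm2, rose from means of 298 ± 24.8 to 388 ± 16.0 and from 449.8 ± 24.9 to 558 ± 28.9 FPKM (SD, n = 3 each). Their log2 changes were 0.38 and 0.31, with limma adjusted p of 0.0288 and 0.0387. Rps19, the gene most often mutated in Diamond-Blackfan anaemia, had a change of like size, 0.34 ± 0.09 (SE), and an adjusted p of 0.0524 in limma, with 398, 335 and 367 FPKM in young and 436, 453 and 508 FPKM in old samples. Rpl13a, which also represses translation in interferon-treated cells, was at 2076, 1864 and 2118 FPKM in young and 2837, 2649.6 and 2202 FPKM in old samples (0.34 ± 0.11, SE, limma adjusted p = 0.0986). For both genes the groups did not overlap.

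The 29 subunit genes that did not pass the test had log2 changes above 0 on the FPKM as deposited. Their adjusted p ran from 0.0524 to 0.675 in limma, and 24 of them had an unadjusted p under 0.05. At that level, 14.6% of all genes tested were higher and 13.1% lower. The groups overlapped in 5 subunit genes, which are named after their values were seen: Rpl28, Rps26, Rps27a, Rps29 and Rpl37. In the other 72 all old samples lay above all young ones, where 17.6% of all genes did so. Rps27a, which is translated as a fusion with ubiquitin, was at 301, 274 and 289 FPKM in young and 337, 294 and 299.9 FPKM in old samples (log2 change 0.11 ± 0.07, SE, limma adjusted p = 0.397). Rpl28 was at 226, 184 and 160.2 FPKM in young and 173, 225 and 213 FPKM in old samples (0.11 ± 0.14, SE, limma adjusted p = 0.675). In both genes, 1 or more old samples lay under the highest young sample. A smaller change in these genes than in the other members was not tested. An exact permutation test of single genes, two-sided, cannot go below p = 0.1 with 3 samples against 3. It gave 0.1 for every tested member that the naming rule covers and whose groups did not overlap, and an exact p = 0.3 for Rps27a.

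The most abundant members were Rps27, Rplp1 and Rps21, with short transcripts. Rps27 was at 8448, 6722 and 8287 FPKM in young and 8931, 10365 and 11611 FPKM in old samples, and did not pass the test (log2 change 0.40 ± 0.14, SE, limma adjusted p = 0.116). Rps21 was at 2537, 2568 and 2525 FPKM in young and 3559.8, 3119.9 and 3282 FPKM in old samples (0.38 ± 0.08, SE, limma adjusted p = 0.03). The steps in the low values were met when 280 to 300 nt was taken off each transcript's length, so that a transcript such as the 345-nt one of Rps27 is divided by a small remainder. Levels of the shortest genes are therefore uncertain against longer ones, and the mean level fell with transcript length across the 77 genes (Spearman's rho -0.66, over genes in the same 6 libraries). The log2 change had a rho of 0.15 with length.

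Because 22 members have a most abundant transcript under 500 nt, the changes were set against length. Over members and other genes with a mean of at least 10 FPKM, the members' median log2 change was 0.33 under 500 nt (n = 20), 0.30 from 500 to under 700 nt (n = 20), 0.33 from 700 to under 1000 nt (n = 27) and 0.36 from 1000 to under 2000 nt (n = 14). The other genes had medians of 0.03, 0.04, 0.07 and 0.07 in the same classes. Of the 3 members at 2000 nt and over, 2 were called, with a median of 0.36. The 4908 other genes of this class had a median of -0.03, and 6.28% of them were called higher. When transcripts under 600 nt were left out of the sums, 40 of 65 tested members were called higher, where 7.39% of all genes were. The members' median log2 change was then 0.31, with 57 of 60 subunit genes above 0 (Rpl34, Rps13 and Rps14 were not). For these 3 genes only minor transcripts remained. The 480-nt transcript holds 96.9% of Rpl34 and the 589-nt one 99.5% of Rps13, and both main transcripts of Rps14, of 444 and 597 nt, were left out.

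**Figure D3:**
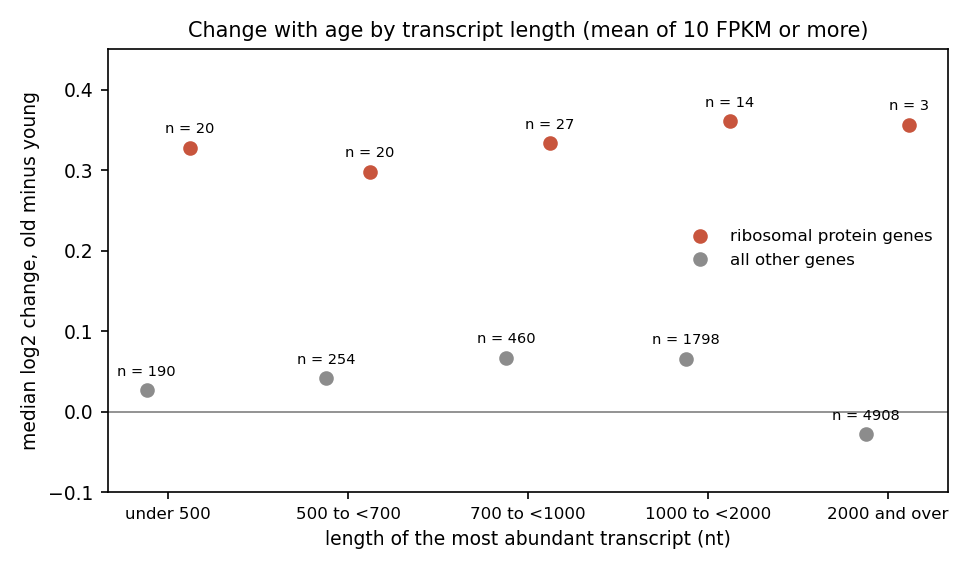
Median log2 change of FPKM, old minus young, by the length of a gene's most abundant transcript, for ribosomal protein genes (red) and all other genes (grey) with a mean of at least 10 FPKM. The red points lie between 0.30 and 0.36 in every class and the grey points between -0.03 and 0.07.

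The paralogs of ribosomal proteins, which can take a parent's place in some tissues, did not pass the test. Of 7 paralogs, 5 were tested in limma and 0 were called, with 2 at an unadjusted p under 0.05, Rpl36al and Rps27l. Of all genes tested, 5.65% were called higher and 3.81% lower, and 14.6% and 13.1% at an unadjusted p under 0.05. With 5 genes, the lack of calls cannot set the paralogs apart from other genes. Rpl36al was at 468, 458 and 452 FPKM in young and 515, 516 and 526 FPKM in old samples (log2 change 0.18 ± 0.05, SE, limma adjusted p = 0.0826), and its parent Rpl36a at means of 539 ± 45.5 and 688 ± 11.8 FPKM (SD, n = 3 each, 0.36 ± 0.08, SE, limma adjusted p = 0.0335). Rps27l, a p53 target, was at 216, 238 and 236 FPKM in young and 275, 249.7 and 258 FPKM in old samples (0.18 ± 0.07, SE, limma adjusted p = 0.135). As a share of the parent's FPKM, Rpl36al was at 81.3, 93.7 and 81.4% in young and 74.7, 76.3 and 75.2% in old samples. Rpl7l1, a paralog of Rpl7, was at 4.87, 7.04 and 5.76% of its parent in young and 3.85, 4.33 and 4.69% in old samples. For both pairs the old shares lay below the young ones (two-sided exact permutation p = 0.1, the smallest possible, adjusted p = 0.2 over 4 pairs). The shares of Rpl22l1 and Rps27l overlapped between the groups (exact permutation p = 0.4 each).

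Rpl22l1 was at 113, 114 and 114 FPKM in young and 163, 105 and 115 FPKM in old samples, with old 1 far above the others, and Rpl7l1 had means of 36.1 ± 3.79 and 33.8 ± 4.29 FPKM (SD, n = 3 each). The values were not past the threshold (log2 changes 0.14 ± 0.15 and -0.10 ± 0.12, SE, limma adjusted p = 0.58 and 0.629). The other paralogs were near or at 0. Rpl3l, known from heart and skeletal muscle, reached at most 0.233 FPKM, against means of 394 and 528 FPKM for its parent Rpl3, which rose (log2 change 0.42 ± 0.07, SE, limma adjusted p = 0.0218). Rpl39l, known from testis, was at 0.292, 0 and 0.310 FPKM in young and 0, 0.238 and 0.144 FPKM in old samples. Rpl10l, also a testis gene, was listed at 0 in all samples. The parents Rpl7, Rpl22 and Rps4x rose, with log2 changes of 0.35, 0.33 and 0.32 and limma adjusted p of 0.0347, 0.0244 and 0.0414. For Rpl10 and Rpl39 the log2 changes were 0.18 ± 0.07 and 0.23 ± 0.08 (SE), with limma adjusted p of 0.142 and 0.0976.

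Of 6 members with the name of a retrocopy, 4 were tested in limma and 0 were called, 0 also at an unadjusted p under 0.05. The shares over all genes were 5.65% higher and 3.81% lower, and 14.6% and 13.1% at an unadjusted p under 0.05. Rpl36-ps4 and Rpl9-ps1 were listed at 0 in all samples, and the other 4, Rpl10-ps3, Rpl9-ps6, Rps12-ps3 and Rps27rt, had means of 1.26 to 11.3 FPKM. Their log2 changes lay between -0.23 and 0.22. Reads of these copies can be split with those of the parent genes, so that their values are uncertain. Rps19bp1, which binds Rps19 and carries a member's symbol without being a ribosomal protein, was at 16.8 ± 3.28 FPKM in young and 19.6 ± 2.52 FPKM in old samples (SD, n = 3 each, log2 change 0.24 ± 0.16, SE, limma adjusted p = 0.382).

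Fewer single transcripts than genes passed the test. When each transcript was fitted on its own, 5 of 192 tested transcripts of members were higher, those of Rpl12, Rpl14, Rps15a, Rps6 and Rps9, against 0.549% of 38764 transcripts. A value under 0.001 FPKM in 1 sample and of at least 10 FPKM in another was found in 5 member transcripts, 4 of them under 600 nt. The 312-nt transcript of Rpl28 was one of these, at 70.2, 46.4 and 0.000435 FPKM in young and 15.1, 40.2 and 25.4 FPKM in old samples. Its 1106-nt transcript was at 154, 137 and 156 FPKM in young and 157, 182 and 188 FPKM in old samples, without overlap of the groups (log2 change 0.23 ± 0.09, SE, limma adjusted p = 0.264).

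Of the genes with more than 1 transcript above 5 FPKM, Rps10, Rps24 and Rps14 are given with their values, chosen after these were seen. The 498-nt transcript of Rps10 was at 142, 103 and 164 FPKM in young and 296, 279.8 and 234 FPKM in old samples, and the 887-nt transcript at 504, 564 and 511 FPKM and 679.9, 566 and 605 FPKM. The log2 changes were 1.00 ± 0.18 and 0.23 ± 0.09 (SE, limma adjusted p = 0.0656 and 0.252). The 2 transcripts share the coding sequence in exons on chromosome 17 between 27630468 and 27634475, and the longer one has in addition a first exon from 27635204 to 27635545. A further transcript of 522 nt was at 0.00704 FPKM in old 1 and at 179.9 FPKM in old 2. As a gene, Rps10 was at 736, 696 and 775 FPKM in young and 976, 1025 and 921 FPKM in old samples (0.40 ± 0.07, SE, limma adjusted p = 0.0235).

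Rps24, whose last coding part is alternatively spliced, also had transcripts with unequal changes, a difference that was not tested. Its 519-nt transcript was at 39.4, 26.6 and 24.2 FPKM in young and 55.5, 53.0 and 68.9 FPKM in old samples (log2 change 1.00 ± 0.20, SE, limma adjusted p = 0.0739), 1.83 to 4.14% of the gene in any sample. The 468-nt transcript was at 1273, 1219.6 and 1298 FPKM in young and 1647, 1589 and 1594 FPKM in old samples (0.35 ± 0.06, SE, limma adjusted p = 0.0575). Both share the coding sequence in 4 exons, and the 519-nt transcript goes on into an exon of 71 nt on chromosome 14, from 24495775 to 24495845. For Rps14, the 444-nt transcript was at 1052, 807 and 1087 FPKM in young and 1106, 1614 and 1838 FPKM in old samples, and the 597-nt one at 1038, 912 and 1047 FPKM and 1304, 1071 and 1141 FPKM. The share of the 444-nt transcript was 45.8% in old 1 and 61.6% in old 3, so that the old samples differed among themselves.

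**Figure D4:**
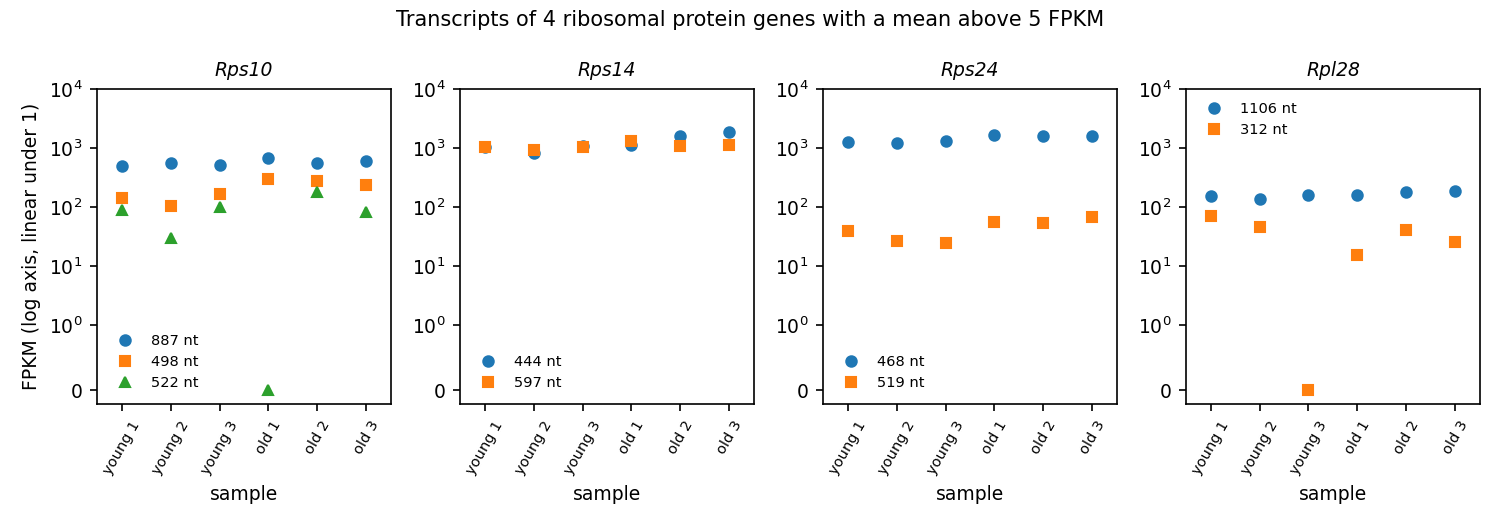
FPKM of each transcript with a mean above 5 FPKM in the 3 young and 3 old samples, for Rps10, Rps14, Rps24 and Rpl28, on a log axis that is linear under 1. The 498-nt transcript of Rps10 and the 519-nt transcript of Rps24 lie higher in all old samples, while the 522-nt transcript of Rps10 in old 1 and the 312-nt transcript of Rpl28 in young 3 drop to near 0.

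Related genes were set beside the members. Fau and Rack1 are components of the cytosolic ribosome whose symbols the rule does not cover. Rack1, a scaffold protein on the small subunit, was at 261, 231 and 258 FPKM in young and 293, 305 and 323 FPKM in old samples (log2 change 0.30 ± 0.07, SE, limma adjusted p = 0.046). Fau, which encodes a small subunit protein fused to a ubiquitin-like one, was at 584, 531 and 552 FPKM in young and 655, 672 and 648 FPKM in old samples, and did not pass the test (0.25 ± 0.06, SE, limma adjusted p = 0.0506). Of 38 translation factors, 3 were higher and 2 lower, against 5.65% and 3.81% of all genes. Their median log2 change was 0.09, against 0.0088 over all genes. Eef1a1, which brings aminoacyl-tRNA to the ribosome and whose mRNA has a TOP tract, was at 2453, 2283 and 2611 FPKM in young and 3179, 3418 and 3457 FPKM in old samples (0.45 ± 0.08, SE, limma adjusted p = 0.0243). Naca and Btf3, the subunits of the nascent chain complex at the tunnel exit, rose from 287 ± 13.3 to 346 ± 1.55 and from 207 ± 5.32 to 262 ± 6.25 FPKM (SD, n = 3 each, limma adjusted p = 0.0344 and 0.0199). The 2 factors that fell, named after their values were seen, were Eef1a2, the form of neurons and muscle, from 67.0 ± 20.7 to 31.1 ± 0.862 FPKM, and Eif4g2, from 156 ± 8.81 to 126 ± 6.01 FPKM (SD, n = 3 each, limma adjusted p = 0.0264 and 0.0378).

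Of 52 genes of ribosome biogenesis, 2 were higher and 1 lower, against 5.65% and 3.81% of all genes, with a median log2 change of 0.03. Sbds, which helps to release Eif6 from the large subunit, and Nhp2, a protein of the pseudouridylation particles, had log2 changes of 0.30 ± 0.06 and 0.34 ± 0.07 (SE, limma adjusted p = 0.0348 and 0.0353). Wdr12, of the complex that processes the large subunit's rRNA, fell from 9.22 ± 0.693 to 5.90 ± 0.779 FPKM (SD, n = 3 each, log2 change -0.64 ± 0.14, SE, limma adjusted p = 0.0326). Of 23 genes of the mTOR complexes, the S6 kinases and their partners, 1 was higher, Rps6ka1, and 1 was lower, the Rag GTPase Rragb. Their median log2 change was -0.07, with 7 of the 23 above 0, against 51.0% of all genes. The groups did not overlap in 1 that was higher and 7 that were lower, against 17.6% and 16.1% of all genes. Rps6ka1 was at 22.7 ± 3.63 FPKM in young and 31.4 ± 1.52 FPKM in old samples (SD, n = 3 each), and Rragb at 24.9, 27.4 and 19.7 FPKM in young and 15.8, 14.0 and 17.5 FPKM in old samples (limma adjusted p = 0.0499 and 0.0439).

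The 78 genes of mitochondrial ribosomal proteins, which build the separate ribosome inside mitochondria, had a median log2 change of 0.05, with 45 above 0. In limma 0 were higher and 1 was lower, against 5.65% and 3.81% of all genes. At an unadjusted p under 0.05, 10 were higher and 7 lower, against 14.6% and 13.1% of all genes. Mrpl18 fell from 39.7 ± 1.70 to 30.5 ± 3.32 FPKM (SD, n = 3 each, limma adjusted p = 0.046). The difference in change between these lists and the members was not tested, and their values share the same 6 libraries.

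**Figure D5:**
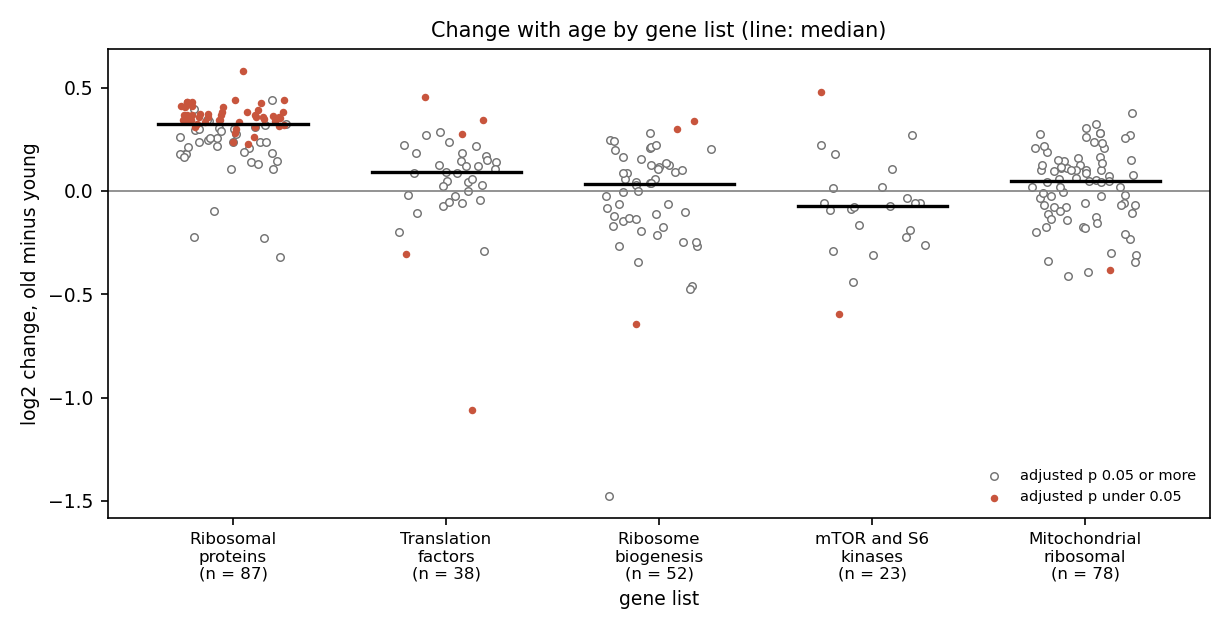
Log2 change of FPKM, old minus young, of each tested gene in 5 lists, with filled points for an adjusted p under 0.05 in limma and a line at the median. The ribosomal proteins have a median of 0.32, the translation factors 0.09, and the other lists lie between -0.07 and 0.05.

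Markers of single cell types moved with age beside these genes. Over all genes tested, 5.65% were higher and 3.81% lower (limma adjusted p under 0.05). Of 14 macrophage markers, 11 were higher, none of the 14 was at 0, and their summed level was 147 to 238 FPKM in young and 782 to 852 FPKM in old samples. Hair cell markers were lower for 5 of 14, with sums of 729 to 969 FPKM in young and 384 to 449 FPKM in old samples, and neuron markers for 6 of 10, with sums of 572 to 1136 and 383 to 418 FPKM. Schwann cell markers were lower for 4 of 9, with sums of 834 to 1281 FPKM in young and 711 to 742 FPKM in old samples. Osteoblast markers were lower for 3 of 10, with sums of 5164 to 5915 and 4300 to 4715 FPKM and a median log2 change of -1.09. At an unadjusted p under 0.05 in limma, 9 of the 10 osteoblast markers were lower and 1 was higher, against 13.1% and 14.6% of all genes. Of 10 lymphocyte markers, 8 were tested and 2 were higher, with Gzma at 0. Their low sums overlapped between the groups, at 0.745 to 3.52 FPKM in young and 3.46 to 4.59 FPKM in old samples. Markers of dividing cells had sums of 74.3 to 86.2 and 74.1 to 78.3 FPKM, and 0 of 11 were called in limma, 0 also at an unadjusted p under 0.05. Of 9 tested skeletal muscle markers, 0 were higher and 1 was lower in limma, with a median log2 change of 0.96 and sums of 260.2 to 374 and 179 to 202 FPKM. The marker that fell was Pvalb, also expressed in neurons and hair cells, which held most of these sums, from 328 ± 62.8 to 176 ± 15.4 FPKM (SD, n = 3 each, limma adjusted p = 0.0201). Of 7 tested erythroid markers, 0 were called in limma, with 0 higher and 1 lower at an unadjusted p under 0.05 and sums of 1434 to 2954 and 1369 to 2254 FPKM. Supporting cell markers had sums of 1186 to 1293 and 1260.4 to 1392 FPKM, with 1 of 11 higher and 1 lower. The part of these cell types in the level of the ribosomal protein genes was not tested.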

How the data were processed

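Cochlear RNA of 3 young and 3 old samples, assigned from their labels, was analysed. From directional libraries and paired-end reads, the authors assembled transcripts on GRCm38 (Cufflinks 2.1.1) and deposited the FPKM of each transcript and sample that Cuffdiff 2.1.1 gave. The submitters' processing notes also name TopHat2 2.0.9 and CASAVA 1.8. The annotation release is not given in the sources used here.

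Transcripts were matched to GENCODE M21 (404 Ensembl transcripts were not matched and were left out) and summed per gene. Genes with a mean of at least 0.1 FPKM were fitted with limma 3.58.1 in R 4.3.3 (lmFit, eBayes with trend, age group as the only term) on log2(FPKM + 0.1), so that folds of low genes are understated. The Benjamini-Hochberg adjustment ran over all genes, with a threshold of 0.05. Cuffdiff needs reads, which were not used here. The code was tested on simulated data. The depth was estimated from the steps of low values and covers counting error only. Members, gene lists and tests were chosen with earlier results of these data known. Named genes were the 6 largest rises and falls among called members with groups that do not overlap, paralogs and parents, the stalk, Rpsa and 6 further fixed genes, the 3 highest and 3 lowest means, and up to 3 called genes of each list. For 1 listed gene no result is reported here. Promoter sequences are from RefSeq (GRCm38.p6). Alternatives were the pseudocount, filter, scaling, variance trend, sample weights, replicate block, each sample left out and the transcripts summed. Python 3.11.15 and matplotlib 3.10.9 were used.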

Additional observations from a re-analysis of the deposited data

How the results depend on the processing

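The count of 48 members that were higher depended on the settings of the test, and 0 members were lower in any of them. It was 27 without a filter on low values and 8 with quantile normalization, where 3.37 and 4.75% of all genes were called higher. With transcripts in place of genes (added after seeing the data) it was 5, against 0.549% of all transcripts. At an unadjusted p under 0.05 it was 74, against 14.6% of all genes. By groups that do not overlap it was also 74, against 17.6%. Without a variance trend, limma called 0, with 65 at an unadjusted p under 0.05, and called 1.46% of all genes higher. Leaving out 1 sample gave 0 to 27, where 0.237 to 4.87% of all genes were called higher. With the replicate number as a block, 4 members were called, where 2.26% of all genes were called higher. Samples with the same number did not deviate together over all genes tested (r = 0.02, -0.04 and 0.01). Pairs with unlike numbers had r of -0.05 to 0.04, so that this check cannot tell whether the numbers pair the samples. The cause of the shifts in the count was not tested. In the other settings the count was 40 to 56, where 4.33 to 7.65% of all genes were called higher. The median log2 change was 0.15 with quantile normalization and 0.28 to 0.36 in the other settings, including each sample left out. For the named members, 438 values kept their side of the threshold, 133 lost it, 7 passed it, and none that was called changed sign. Without a call on either side, 7 values of 5 genes had another sign: Rpl10, Rps27a and Rpl36al with quantile normalization (-0.03, -0.03 and -0.02), Rpl36al without transcripts under 600 nt (-0.36), Rpl22l1 without old replicate 1 (-0.05), and Rpl39l without young replicate 3 or old replicate 1 (0.03 and 0.19). Leaving out transcripts under 600 nt took away the 526-nt transcript that holds 99.2% of the FPKM of Rpl36al. Depth limits the members near 0, such as Rpl3l and Rpl39l, for which a difference was not detectable.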
